A study of Homo sapiens with 4 samples.

Results

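EPCAM and 9 further genes of the epithelial programme were compared between cells given an siRNA against KLF11 and cells given a control siRNA. They were chosen by name, with earlier results of these data known. They are EPCAM, RAB25, the transcription factors ELF3, GRHL2 and OVOL2, and the splicing regulators ESRP1 and ESRP2. The protease gene ST14 and its inhibitor genes SPINT1 and SPINT2 complete them. All 10 had a row of their own among the 57905 gene identifiers of the table. The cells are labelled MG63, a human osteosarcoma line, and polyadenylated RNA was sequenced 48 hours after transfection with KLF11 siRNA (2 libraries) or control siRNA (2 libraries). The labels name no other treatment or genetic change, and both groups come from the same line. No label names the siRNA sequences or says how many were used. Nor does any label state whether the replicates are separate cultures. The p-values then cover only the spread from library to library, and that spread can be technical.

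Epithelial cells hold to their neighbours through adhesion proteins, and EPCAM, a surface glycoprotein, is among the most widely used markers of such cells and is also abundant on pluripotent stem cells. GRHL2, OVOL2 and ELF3 are DNA-binding factors that keep epithelial genes active or mesenchymal genes silent, and the ESRP proteins bind pre-mRNA and set the epithelial splice forms of genes such as FGFR2 and CD44. ST14 encodes matriptase, a membrane-anchored serine protease that can cleave EPCAM, and SPINT1 and SPINT2 encode Kunitz-type inhibitors that hold it in check. RAB25 is an epithelial small GTPase of the RAB11 group that steers recycling vesicles to the cell surface.

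KLF11, the zinc finger repressor aimed at by the siRNA, was at 5.49 and 6.74 FPKM in KLF11 siRNA libraries, against 12.3 and 12.4 FPKM in control siRNA libraries (log2 change -0.92, SE 0.139, limma adjusted p = 0.00951). FPKM is a fragment number scaled by gene length and by the size of the library, and the table gives no counts, so the depth of the libraries is unknown. FPKM summed to between 577849 and 604498 per library. Tests were run with limma on log2(FPKM + 1) over the 15320 genes with a mean of at least 1 FPKM, of which 2071 were higher and 3329 lower with KLF11 siRNA at an adjusted p under 0.05. With median-of-ratios scaling these counts were 2728 higher and 2664 lower, and the tested genes had a median log2 change of -0.01, against -0.11 on the deposited scale.

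The label MG63 was set beside lists of defining genes, and the osteoblast and mesenchymal genes were not uniform. RUNX2, a regulator of the osteoblast lineage, was at 0.60 and 0.65 FPKM in KLF11 siRNA libraries and at 0.03 and 0.02 FPKM in control siRNA libraries. SP7, another regulator, was listed at 0 in 3 of 4 libraries and at 0.04 FPKM in control siRNA replicate 1, and the bone matrix gene IBSP was listed at 0 in all 4. Other genes of the list were abundant in both groups: SPARC was at 716 and 772 FPKM with KLF11 siRNA and 657 and 637 FPKM with control siRNA. COL1A2 was at 136 and 115 FPKM with KLF11 siRNA and 133 and 126 FPKM with control siRNA, and ALPL at 106 and 79.2 FPKM with KLF11 siRNA and 101 and 88.9 FPKM with control siRNA. SPP1, which encodes osteopontin, was at 247 and 99.1 FPKM with KLF11 siRNA, against 2.31 and 2.76 FPKM with control siRNA. Genes of pluripotent cells were abundant in both groups: their 13 listed genes summed to 2589 to 3101 FPKM in the KLF11 siRNA libraries, against 1661 to 1662 FPKM in the control siRNA libraries. RUNX2, SP7 and IBSP are thus at or near 0 in libraries that also hold SPARC, COL1A2 and ALPL, and the cells are called here by their siRNA.

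All 10 epithelial genes were lower in each KLF11 siRNA library than in each control siRNA library, whereas 44.5% of tested genes had groups that did not overlap in this direction. Of the 10, 9 fell at an adjusted p under 0.05, against 21.7% of all tested genes, and 0 rose (0 at an unadjusted p under 0.05), against 13.5%. OVOL2 did not pass. A fall of at least 1 log2 unit that also passed was seen in 8 of the 10 and in 8.26% of tested genes. The median log2 change of the 10 was -1.21, beside -0.11 over all tested genes. Because the 10 were chosen with earlier results of these data known, these comparisons are descriptive and not independent support. All 10 met the filter on low values, OVOL2 only through its control siRNA level. The 9 calls needed both control siRNA libraries: without control siRNA replicate 1 or without replicate 2, limma called no gene of the table. These fits leave 1 control siRNA library. All 10 log2 changes were negative in them, and the median over all tested genes was -0.09 without replicate 1 and -0.13 without replicate 2. The share of negative changes over all tested genes was not computed. Without the filter, with 34232 genes tested, EPCAM, ELF3 and ST14 still passed and 6 calls were lost. In bulk RNA, fewer cells expressing a gene and less RNA per cell cannot be told apart.

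**Figure D1:**
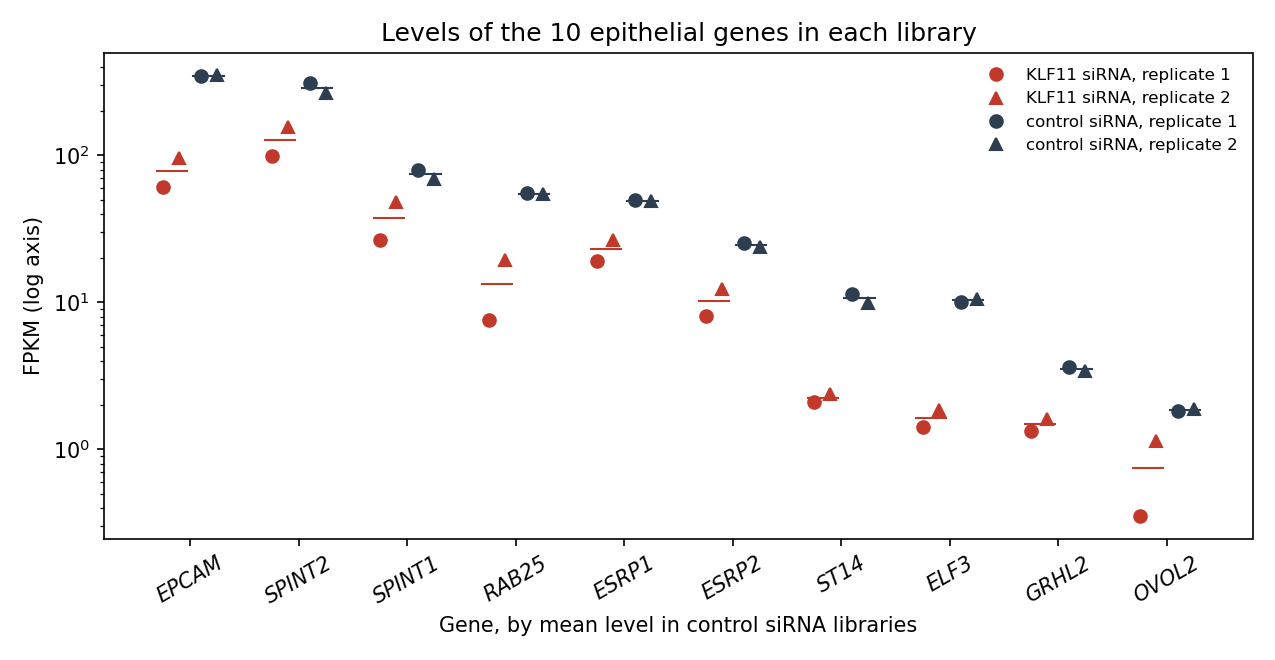
FPKM on a log axis of the 10 epithelial genes in 2 KLF11 siRNA libraries (red, left) and 2 control siRNA libraries (dark, right), with circles for replicate 1, triangles for replicate 2 and lines for the group means. The red points lie below the dark ones for all 10 genes, and KLF11 siRNA replicate 2 lies above replicate 1 for each of them.

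EPCAM (ENSG00000119888) was at 60.7 and 95.5 FPKM in KLF11 siRNA libraries, against 346 and 352 FPKM in control siRNA libraries. The control siRNA libraries lay close together, and neither KLF11 siRNA library came near them. Its mean was 78.1 ± 24.7 FPKM with KLF11 siRNA and 349 ± 4.0 FPKM with control siRNA (SD, n = 2 each), which is 4.46-fold lower (log2 change -2.18, SE 0.213, limma adjusted p = 0.00436). EPCAM ranked 377th of the 15320 tested genes by mean level.

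The genes that bind or cleave the EPCAM protein did not move as a block. Of 9 tested members of a list of EPCAM partners and cleaving enzymes, 2 rose and 4 fell, with a median log2 change of -0.10, which was 0.02 with median-of-ratios scaling (2 higher and 3 lower). Beside this and each later list count stand 21.7% lower and 13.5% higher over all tested genes. No list was tested against these shares. CLDN7, a claudin that forms a complex with EPCAM, was at 5.78 and 19.3 FPKM in KLF11 siRNA libraries and at 115 and 106 FPKM in control siRNA libraries (log2 change -3.25, limma adjusted p = 0.0097). BACE1, a protease able to cut EPCAM, fell by 1.53 on the log2 scale, and ADAM17, which takes part in its shedding, fell by 0.53. The tetraspanin gene CD9 rose to 186 and 162 FPKM with KLF11 siRNA, against 55.4 and 52.1 FPKM with control siRNA. CD44, a hyaluronan receptor, rose to 26.1 and 15.2 FPKM in KLF11 siRNA libraries, against 2.50 and 1.35 FPKM in control siRNA libraries (log2 change 2.87, adjusted p = 0.00503).

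Among the transcription factors, ELF3 (ENSG00000163435), an ETS-family factor of epithelia, was at 1.43 and 1.85 FPKM in KLF11 siRNA libraries, against 10.0 and 10.6 FPKM in control siRNA libraries. The mean was 6.30-fold lower, the largest ratio among the 10 genes (log2 change -2.11, SE 0.157, limma adjusted p = 0.00287). GRHL2 (ENSG00000083307), a grainyhead-like factor of epithelial junction genes, was at 1.34 and 1.62 FPKM with KLF11 siRNA and at 3.66 and 3.43 FPKM with control siRNA (2.40-fold lower, log2 change -0.88, adjusted p = 0.0179). OVOL2 (ENSG00000125850), a zinc finger repressor of mesenchymal genes, was the lowest of the 10, with 0.35 and 1.14 FPKM in KLF11 siRNA libraries and 1.82 and 1.87 FPKM in control siRNA libraries. Its KLF11 siRNA libraries lay far apart, and the difference did not pass (log2 change -0.74, SE 0.279, adjusted p = 0.0925). With KLF11 siRNA replicate 2 left out, OVOL2 passed (log2 change -1.08, adjusted p = 0.02), and with replicate 1 left out it did not (-0.41, adjusted p = 0.18). For these low genes the log2 change depends on the pseudocount: with a pseudocount of 5 it was -1.21 for ELF3, -0.40 for GRHL2 and -0.26 for OVOL2, and with 0.1 it was -1.38 for OVOL2.

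A list of 18 held relatives of these factors and other factors linked to epithelia, and 8 of them were under the filter. Of the 10 tested, 9 had a negative log2 change, with a median of -0.66. At the threshold 6 fell, 0 rose (0 at an unadjusted p under 0.05) and 4 did not pass. ELF4 went the other way, with a log2 change of 0.43, and did not pass. OVOL1, the paralog of OVOL2, was at 0.17 and 0.81 FPKM in KLF11 siRNA libraries and at 3.16 and 3.24 FPKM in control siRNA libraries (log2 change -1.53, limma adjusted p = 0.0132). OVOL1 met the filter only through its control siRNA level, so a tested OVOL1 had to differ. PRDM1, a zinc finger repressor, had a log2 change of -1.84 and ELF2, an ETS-family factor, one of -0.83, and both passed. GRHL1, the paralog of GRHL2, did not pass, with 1.39 and 1.41 FPKM with KLF11 siRNA and 1.67 and 1.76 FPKM with control siRNA. GRHL3 was under the filter and went the other way in level, at 1.83 and 0.76 FPKM in KLF11 siRNA libraries against 0.09 and 0.22 FPKM in control siRNA libraries.

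Repressors of the epithelial programme were measured in the same libraries. ZEB2 was at 6.48 and 5.80 FPKM with KLF11 siRNA and at 0.84 and 0.74 FPKM with control siRNA (log2 change 1.99, limma adjusted p = 0.00334). ZEB1 was at 5.53 and 3.47 FPKM with KLF11 siRNA and 0.47 and 0.41 FPKM with control siRNA (log2 change 1.91, adjusted p = 0.00655). Of 7 tested members of this list, TWIST1, TCF4, ZEB1 and ZEB2 rose and KLF8 fell, with a median log2 change of 0.57. TWIST1 reached 14.1 and 8.01 FPKM with KLF11 siRNA, against 1.08 and 0.79 FPKM with control siRNA. ZEB1, ZEB2 and TWIST1 met the filter only through their KLF11 siRNA levels. KLF8, which can repress the epithelial cadherin gene, was at 9.86 and 22.3 FPKM with KLF11 siRNA and 83.9 and 82.1 FPKM with control siRNA. SNAI1 did not pass, at 5.64 and 6.50 FPKM with KLF11 siRNA and 8.60 and 7.13 FPKM with control siRNA.

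Both epithelial splicing regulators fell by similar ratios. ESRP1 (ENSG00000104413) was at 19.2 and 26.6 FPKM in KLF11 siRNA libraries, against 49.6 and 48.6 FPKM in control siRNA libraries (2.14-fold lower, log2 change -1.08, SE 0.162, limma adjusted p = 0.00926). ESRP2 (ENSG00000103067) was at 8.03 and 12.4 FPKM with KLF11 siRNA and at 25.3 and 24.0 FPKM with control siRNA (2.41-fold lower, log2 change -1.22, SE 0.201, adjusted p = 0.0117). The ratio of ESRP1 to ESRP2 in FPKM was 2.40 and 2.15 in KLF11 siRNA libraries and 1.96 and 2.03 in control siRNA libraries. ESRP1 thus stayed the more abundant of the pair in every library. This ratio and those that follow are given as values and were not tested, and with 2 libraries a group an exact two-sided permutation p could be no smaller than 0.33.

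Other splicing factors went in both directions. Of 11 tested members of a list of ESRP partners and factors that act against them, 5 rose and 3 fell, with a median log2 change of 0.39. RBM47, which shares epithelial splice targets with the ESRP proteins, rose to 30.3 and 23.7 FPKM with KLF11 siRNA, against 13.2 and 11.2 FPKM with control siRNA (log2 change 1.08, limma adjusted p = 0.00875). MBNL1, a factor of differentiated cells, was at 4.71 and 3.55 FPKM with KLF11 siRNA and 0.75 and 1.01 FPKM with control siRNA, and met the filter only through its KLF11 siRNA level. HNRNPM, which competes with ESRP1 on CD44 pre-mRNA, rose by 0.67 on the log2 scale, as did MBNL2 (0.92) and SRSF1 (0.39). RBFOX2, a factor of mesenchymal splicing, fell by 0.71, CELF1 by 0.53 and CELF2 by 0.48.

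Genes whose splicing is known to depend on ESRP proteins could be followed only at the level of the gene, because the table holds no exon or isoform values. Of 8 tested, CD44 and MAGI1 rose and FGFR2, ENAH, ARHGEF11 and NUMB fell, with a median log2 change of -0.28. With median-of-ratios scaling 2 were higher and 2 lower. FGFR2, a fibroblast growth factor receptor with an epithelial and a mesenchymal splice form, was at 18.5 and 17.9 FPKM with KLF11 siRNA and 29.8 and 28.3 FPKM with control siRNA (log2 change -0.65, limma adjusted p = 0.00861). NUMB, an endocytic adaptor, fell by 0.91 on the log2 scale and MAGI1, a junction scaffold, rose by 0.83. CTNND1, the p120 catenin gene, did not pass, with 94.0 and 90.4 FPKM with KLF11 siRNA and 105 and 101 FPKM with control siRNA.

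**Figure D2:**
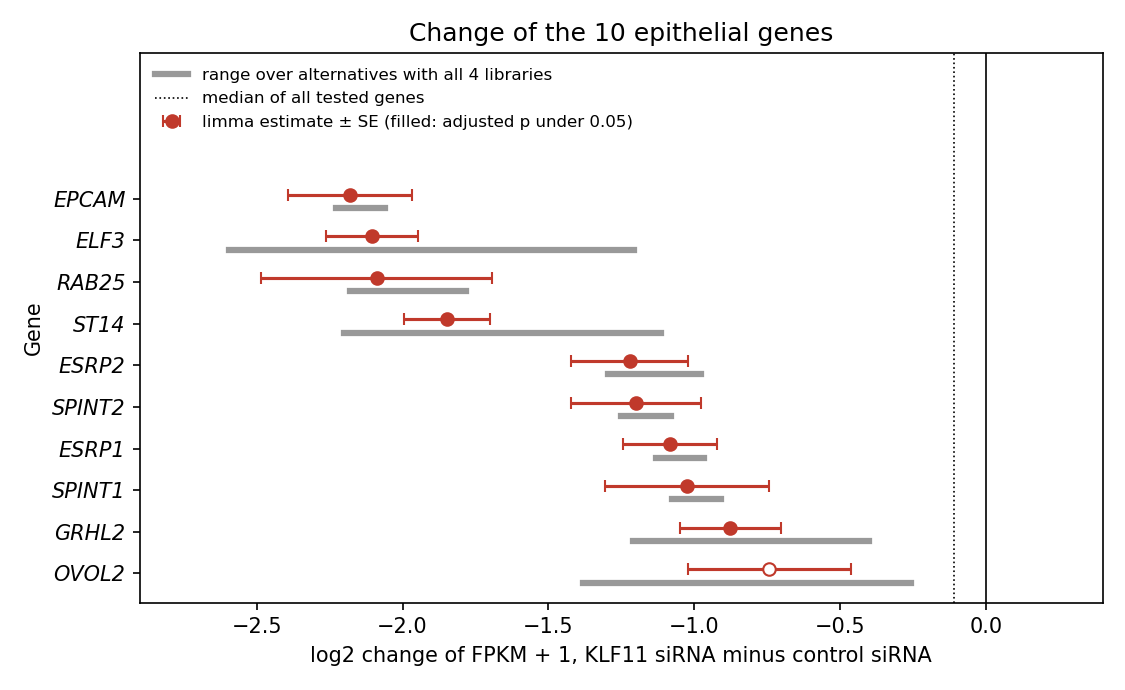
Log2 change of FPKM + 1 (x axis, KLF11 siRNA minus control siRNA) of each gene, with red points and bars for the limma estimate ± SE and grey bars for the lowest to highest value over the alternative settings that kept all 4 libraries. EPCAM, ELF3, RAB25 and ST14 lie near -2, the others between -1.22 and -0.74, and the open point of OVOL2 did not pass.

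The protease gene and the genes of both inhibitors fell, and the ratio between the groups was largest for the protease gene. ST14 (ENSG00000149418) was at 2.11 and 2.38 FPKM in KLF11 siRNA libraries, against 11.4 and 9.96 FPKM in control siRNA libraries (4.76-fold lower, log2 change -1.85, SE 0.149, limma adjusted p = 0.00324; -1.11 with a pseudocount of 5). SPINT2 (ENSG00000167642) was at 99.6 and 156 FPKM with KLF11 siRNA and at 311 and 266 FPKM with control siRNA (2.26-fold lower, log2 change -1.20, SE 0.223, adjusted p = 0.0154). SPINT1 (ENSG00000166145) was at 26.4 and 48.4 FPKM with KLF11 siRNA and at 79.7 and 68.6 FPKM with control siRNA (1.98-fold lower, log2 change -1.03, SE 0.281, adjusted p = 0.0417). SPINT1 was the least firm of the 9 calls. Its adjusted p was 0.0669 in a fit without a variance trend and 0.0668 in a robust fit, and leaving out KLF11 siRNA replicate 1 gave a log2 change of -0.60.

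Within a library, ST14 stood at 0.0799 and 0.0492 of the SPINT1 level in KLF11 siRNA libraries, against 0.143 and 0.145 in control siRNA libraries. Against SPINT2 it stood at 0.0212 and 0.0153 with KLF11 siRNA and at 0.0368 and 0.0375 with control siRNA. The groups did not overlap in either ratio, with less protease RNA per inhibitor RNA in the KLF11 siRNA libraries. The ratio of SPINT1 to SPINT2 was 0.265 and 0.311 with KLF11 siRNA and 0.257 and 0.258 with control siRNA. The groups did not overlap here either, nor in the other ratios of this report, so non-overlap does not single out ST14. These are RNA ratios, and protein or protease activity was not measured.

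**Figure D3:**
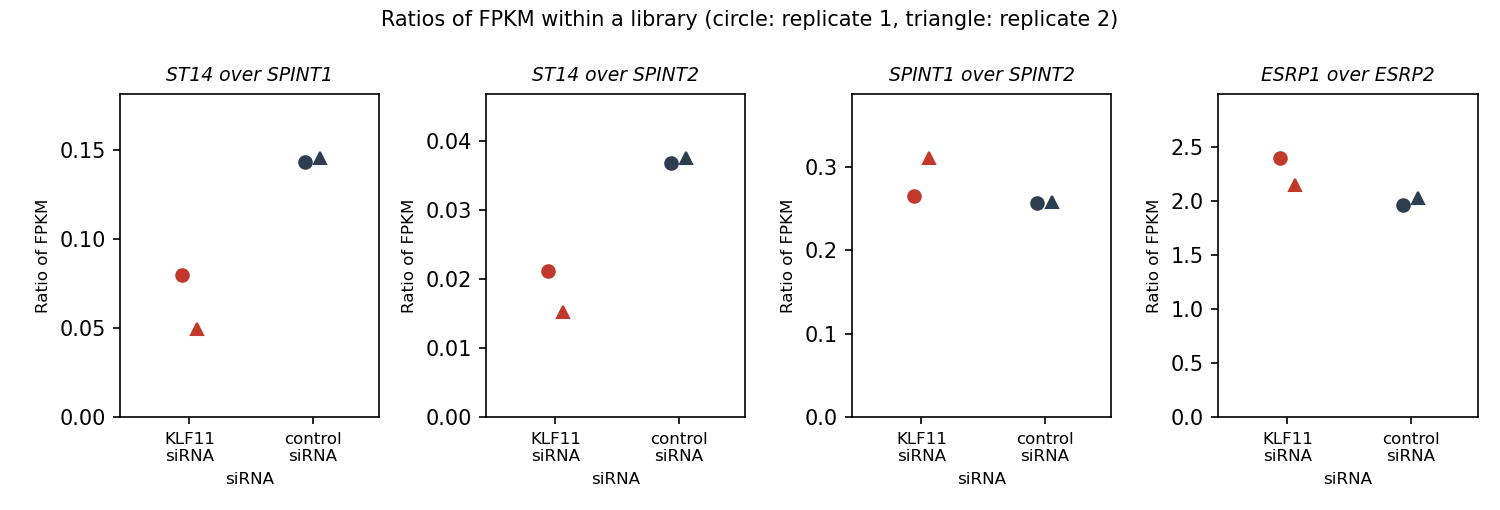
Ratios of FPKM within each library (y axis, from 0) for ST14 over SPINT1, ST14 over SPINT2, SPINT1 over SPINT2 and ESRP1 over ESRP2, with KLF11 siRNA libraries on the left and control siRNA libraries on the right of each panel. Both ratios with ST14 on top are lower in the KLF11 siRNA libraries (0.0492 to 0.0799 against 0.143 to 0.145 over SPINT1). The groups do not overlap in the other panels either.

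Several other membrane proteases were lower with KLF11 siRNA. Of 20 genes of the matriptase network and other membrane serine proteases, 10 were under the filter, and of the 10 tested 5 fell and 2 rose, with a median log2 change of -0.88. PRSS8, which encodes prostasin, a protease that works together with matriptase, was at 12.2 and 24.0 FPKM in KLF11 siRNA libraries and 69.2 and 57.9 FPKM in control siRNA libraries (log2 change -1.83, limma adjusted p = 0.0122). HPN, which encodes the protease hepsin, was at 0.66 and 2.51 FPKM with KLF11 siRNA and 20.1 and 14.8 FPKM with control siRNA. TMPRSS2 was at 1.74 and 2.10 FPKM with KLF11 siRNA and 10.3 and 8.95 FPKM with control siRNA. MST1 and its receptor gene MST1R also fell, by 1.71 and 1.26 on the log2 scale, MST1R having met the filter only through its control siRNA level. F2RL1, a receptor activated by matriptase cleavage, rose to 34.9 and 30.2 FPKM with KLF11 siRNA, against 18.9 and 18.6 FPKM with control siRNA, and MET, the hepatocyte growth factor receptor, rose by 0.77 on the log2 scale but met the filter only through its KLF11 siRNA level.

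RAB25 (ENSG00000132698) was at 7.54 and 19.3 FPKM in KLF11 siRNA libraries, against 55.5 and 54.5 FPKM in control siRNA libraries (4.10-fold lower, log2 change -2.09, SE 0.395, limma adjusted p = 0.0162). As a ratio, the KLF11 siRNA libraries differed more from each other for RAB25 than for any of the 10 genes but OVOL2. Leaving out KLF11 siRNA replicate 2 gave a log2 change of -2.71, and leaving out replicate 1 gave -1.47. RAB11A, the relative found in most cell types, was at 120 and 149 FPKM with KLF11 siRNA and 182 and 183 FPKM with control siRNA (log2 change -0.44, adjusted p = 0.0412). The ratio of RAB25 to RAB11A was 0.0626 and 0.129 in KLF11 siRNA libraries, against 0.305 and 0.298 in control siRNA libraries. In a list of 16 RAB25 relatives and recycling genes, all were tested, 4 fell, and 0 rose (2 at an unadjusted p under 0.05 in limma), with a median log2 change of -0.16. The 4 were RAB11A, RAB17, RAB11FIP4 and MYO5B. With median-of-ratios scaling 2 of the list were higher and 3 lower, and RAB11A did not pass. Over all tested genes on the deposited scale, 21.7% fell and 13.5% rose, with a median log2 change of -0.11. RAB17, another epithelial RAB, was at 7.65 and 24.8 FPKM with KLF11 siRNA and 108 and 88.2 FPKM with control siRNA (log2 change -2.72, adjusted p = 0.0151), and MYO5B, a motor of apical recycling, fell by 0.87 on the log2 scale.

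**Figure D4:**
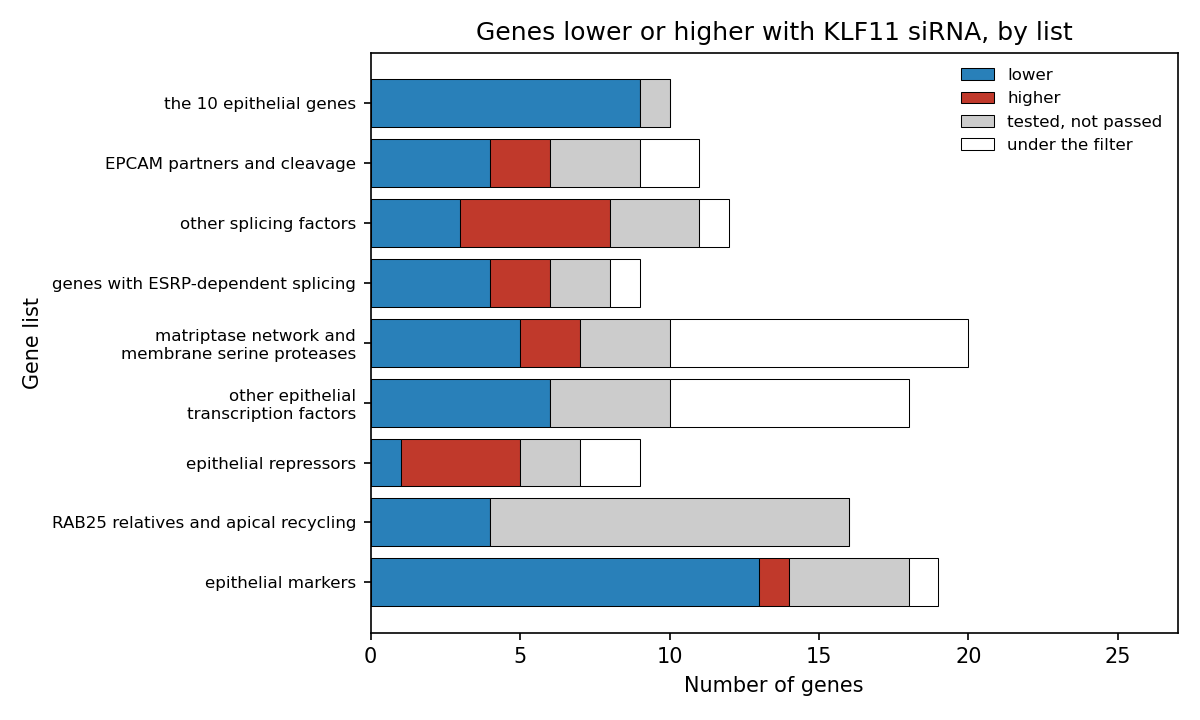
Number of genes (x axis) that were lower, higher, tested but not passed, or under the filter with KLF11 siRNA, for the 10 epithelial genes and the related lists. The 10 genes show 9 lower and 0 higher, the RAB25 relatives 4 lower and 0 higher of 16 (3 and 2 with median-of-ratios scaling), and the epithelial repressors 4 higher and 1 lower of 7 tested. Among the repressors that were higher, ZEB1, ZEB2 and TWIST1 met the filter only through their KLF11 siRNA levels. Of all tested genes, 21.7% were lower and 13.5% higher.

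The order of the levels differed between the groups. With control siRNA the order by mean FPKM was EPCAM, SPINT2, SPINT1, RAB25, ESRP1, ESRP2, ST14, ELF3, GRHL2 and OVOL2, and only the neighbours ST14 and ELF3 had overlapping libraries. With KLF11 siRNA, SPINT2 (mean 128 FPKM) stood above EPCAM (mean 78.1 FPKM), and ESRP1 (22.9 FPKM) above RAB25 (13.4 FPKM). In that group SPINT1 and ESRP1, ESRP1 and RAB25, RAB25 and ESRP2, and ELF3 and GRHL2 overlapped. The ratio of EPCAM to SPINT2 was 0.609 and 0.614 in KLF11 siRNA libraries, against 1.11 and 1.32 in control siRNA libraries.

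KLF11 siRNA replicate 1 was lower than replicate 2 for all 10 genes, and for 79% of the genes called lower. The median log2 ratio of replicate 2 to replicate 1 was 0.63 over the 10 genes and 0.23 over the other genes called lower, while in the control siRNA pair it was -0.05 over the 10. All 10 genes were under 50% of the control siRNA mean in replicate 1 and 5 of 10 in replicate 2. Neither count was made over all tested genes, and the 79% covers only genes called lower. ELF3 and ST14 were closest between the KLF11 siRNA libraries in percent of the control siRNA mean, at 13.8% and 17.9% for ELF3 and 19.7% and 22.3% for ST14. OVOL2 was at 19.0% and 61.8%, SPINT1 at 35.6% and 65.3% and RAB25 at 13.7% and 35.1%. KLF11 itself was at 44.4% in replicate 1 and 54.5% in replicate 2. Whether the difference in KLF11 level bears on the epithelial genes was not tested.

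**Figure D5:**
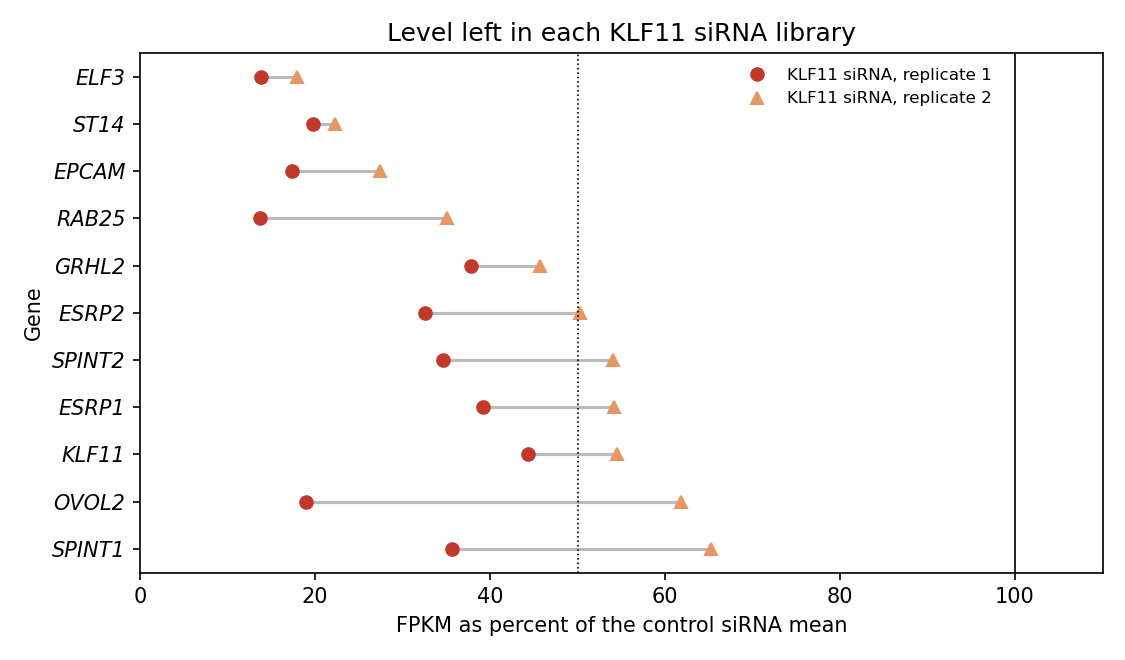
FPKM in KLF11 siRNA replicate 1 (circles) and replicate 2 (triangles) as percent of the control siRNA mean (x axis) for the 10 epithelial genes and KLF11. Replicate 2 lies to the right of replicate 1 in all 11 rows, from a narrow gap for ST14 (19.7% and 22.3%) to a wide one for OVOL2 (19.0% and 61.8%).

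Likeness to EPCAM was measured as the Euclidean distance between centred log2(FPKM + 1) profiles over the 4 libraries. The 5 nearest of the other tested genes were SSUH2, RGS4, IQCA1, KIAA0040 and SOX21, at distances of 0.0534 to 0.0941. SSUH2 was at 0.25 and 0.87 FPKM in KLF11 siRNA libraries and at 5.85 and 5.83 FPKM in control siRNA libraries. SSUH2, RGS4 and SOX21 met the filter only through their control siRNA levels. The added 1 makes the change of such low genes look smaller, so their nearness to EPCAM is tied to this scale. Among the 10 genes, ELF3 was the nearest to EPCAM (distance 0.306, rank 70 of all tested genes), followed by RAB25 (0.437, rank 152) and ST14 (0.519, rank 214), and OVOL2 was the farthest (1.44, rank 1899). With 4 libraries in 2 groups, this distance mainly reflects the difference between the groups.

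Markers of several cell types moved in the same libraries. Of 18 tested epithelial markers, 13 fell and 1, OCLN, rose, with a median log2 change of -1.21. Among the 13, PKP3 and CLDN3 met the filter only through their control siRNA levels, as did CLDN4, which did not pass. The summed level of the epithelial markers, over 19 genes, was 1248 to 1459 FPKM with KLF11 siRNA, against 2275 to 2494 FPKM with control siRNA. KRT8, a keratin of simple epithelia, was at 343 and 481 FPKM with KLF11 siRNA and 965 and 887 FPKM with control siRNA, KRT18 fell by 0.46 and KRT19 by 2.42 on the log2 scale, and reads of these keratins can be shared with pseudogenes. KRT18 did not pass with median-of-ratios scaling, which left 12 epithelial markers lower and 1 higher. CLDN6 did not pass, at 430 and 396 FPKM with KLF11 siRNA and 400 and 378 FPKM with control siRNA (adjusted p = 0.499).

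Of 10 tested osteoblast and mesenchymal genes, 6 rose and 1, COL1A1, fell. Among the 6, PDGFRB and TWIST1 met the filter only through their KLF11 siRNA levels. The osteoblast and mesenchymal list summed to 1987 to 2146 FPKM with KLF11 siRNA and to 1020 to 1075 FPKM with control siRNA. VIM, a mesenchymal intermediate filament, was at 808 and 800 FPKM with KLF11 siRNA and 144 and 131 FPKM with control siRNA, while SPARC, COL1A2 and ALPL did not pass. With median-of-ratios scaling SPARC was called higher, which made 7 higher and 1 lower. Of 12 tested genes of pluripotent cells 7 rose and 2, LIN28A and SALL4, fell. POU5F1 rose by 2.73 on the log2 scale, L1TD1 rose by 0.44 and LIN28A fell by 0.36. TDGF1 did not pass, although it was called lower with quantile normalization. L1TD1 (adjusted p = 0.0489) did not pass with TPM scaling, which left 6 higher and 2 lower, and LIN28A (adjusted p = 0.0399) did not pass with median-of-ratios scaling, which left 7 higher and 1 lower. Of 11 tested genes of endoderm 7 fell and 2, EOMES and AFP, rose, their summed level being 1290 to 3021 FPKM with KLF11 siRNA and 5114 to 5148 FPKM with control siRNA, with TTR listed at 0 in all 4 libraries. EOMES passed with median-of-ratios scaling but not with quantile normalization or either TPM scaling. AFP, listed at 0 in both control siRNA libraries, met the filter only through its KLF11 siRNA level. HNF4A, among the 7 that fell, met the filter only through its control siRNA level. SOX17 was at 19.2 and 47.9 FPKM with KLF11 siRNA and 133 and 131 FPKM with control siRNA. GATA4 fell by 2.45 on the log2 scale, and CER1 did not pass, at 958 and 2574 FPKM with KLF11 siRNA and 4430.3 and 4406 FPKM with control siRNA, although it was called lower with TPM scaling and quantile normalization. The part of these cell types in the levels of the 10 genes was not tested.

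Some of the 10 genes share annotated exon sequence with another gene in GENCODE 29, so that some of their reads could be assigned either way. For overlaps on the same strand this holds under any strand setting. For overlaps on opposite strands it depends on the strand setting, which is not stated. OVOL2 overlaps SNX5 on the same strand, and SNX5 was far more abundant, at 88.9 and 86.1 FPKM with KLF11 siRNA and 67.6 and 68.4 FPKM with control siRNA. ESRP2 overlaps NFATC3 on the opposite strand, which was at 9.51 and 9.99 FPKM with KLF11 siRNA and 7.92 and 7.01 FPKM with control siRNA. AC020978.5, which overlaps ESRP2 on the same strand, was at 0.36 and 0.39 FPKM with KLF11 siRNA and 3.32 and 2.90 FPKM with control siRNA. SNX5 and NFATC3 thus stood higher in the KLF11 siRNA libraries, where OVOL2 and ESRP2 stood lower, and AC020978.5 stood lower like ESRP2. SPINT2 overlaps AC011479.1 on the same strand (0.45 and 1.38 FPKM with KLF11 siRNA, 1.46 and 1.27 FPKM with control siRNA). SPINT1 overlaps SPINT1-AS1 (1.90 and 3.31 FPKM with KLF11 siRNA, 5.57 and 6.57 FPKM with control siRNA) and ELF3 overlaps ELF3-AS1 (0.27 and 0.27 FPKM with KLF11 siRNA, 0.95 and 1.31 FPKM with control siRNA), both on the opposite strand.

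Promoter sequences show what the start regions of genes that fell together look like. The RefSeq promoter table (GRCh38.p14, from 250 bases before to 50 bases after a start) held 3 of the 10 genes: ELF3, RAB25 and SPINT1, the last with 2 starts. EPCAM, ESRP1, ESRP2, GRHL2, OVOL2, ST14 and SPINT2 have no entry. The FPKM values were made on hg19, and which start the RNA of these cells used is not known. Searched on both strands were CAGGTG, an E-box bound by ZEB and SNAI factors, GGGCGG, a GC box bound by KLF and SP factors, and AACCGGTT, a site bound by GRHL factors, none of which overlap each other. In the sequences below, 5′ to 3′ on the + strand, capitals mark the matches, and CACCTG and CCGCCC are the same motifs on the other strand.
ELF3, chr1:202010337-202010636: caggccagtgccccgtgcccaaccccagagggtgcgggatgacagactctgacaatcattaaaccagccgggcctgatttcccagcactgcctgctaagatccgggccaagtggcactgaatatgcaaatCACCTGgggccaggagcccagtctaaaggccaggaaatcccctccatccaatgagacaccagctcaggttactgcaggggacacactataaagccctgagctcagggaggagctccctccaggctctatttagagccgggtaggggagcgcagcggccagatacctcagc
RAB25, chr1:156060910-156061209: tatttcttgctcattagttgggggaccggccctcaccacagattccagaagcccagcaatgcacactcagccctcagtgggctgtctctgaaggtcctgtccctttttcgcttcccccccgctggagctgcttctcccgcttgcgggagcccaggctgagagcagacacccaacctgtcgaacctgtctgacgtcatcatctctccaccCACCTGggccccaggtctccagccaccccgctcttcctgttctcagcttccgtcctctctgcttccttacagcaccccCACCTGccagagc
SPINT1, upstream start, chr15:40843798-40844097: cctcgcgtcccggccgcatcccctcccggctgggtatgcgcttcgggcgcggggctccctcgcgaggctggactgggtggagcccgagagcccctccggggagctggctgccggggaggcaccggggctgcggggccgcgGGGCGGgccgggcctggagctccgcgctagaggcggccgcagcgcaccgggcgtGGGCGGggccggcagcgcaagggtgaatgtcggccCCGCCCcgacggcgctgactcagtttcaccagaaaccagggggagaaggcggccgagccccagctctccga
SPINT1, downstream start, chr15:40844227-40844526: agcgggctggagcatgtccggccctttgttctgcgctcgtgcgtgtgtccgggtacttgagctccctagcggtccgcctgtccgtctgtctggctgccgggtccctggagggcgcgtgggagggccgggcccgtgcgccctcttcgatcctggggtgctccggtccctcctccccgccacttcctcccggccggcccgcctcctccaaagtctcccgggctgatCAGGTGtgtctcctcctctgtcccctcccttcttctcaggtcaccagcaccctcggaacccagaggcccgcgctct

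The E-box was found once in the ELF3 promoter, beginning 120 bases before the start, and at 2 places in the RAB25 promoter, 41 bases before and 37 bases after the start. The downstream SPINT1 promoter held 1 E-box, 26 bases before the start. The E-box was present in 20.6% of the 35116 promoters of the table. The upstream SPINT1 promoter held 3 GC boxes, 110, 56 and 21 bases before the start, and no E-box. A GC box was present in 45% of all promoters. AACCGGTT was in none of these 4 sequences and in 0.134% of all promoters. A match describes letters in this window and is not a measured binding site.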

How the data were processed

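Polyadenylated RNA of 4 libraries, 2 with KLF11 siRNA and 2 with control siRNA, was measured. The authors deposited FPKM values, 1 column a library. They list RSEM 1.3.1, Trim Galore 0.5.0 and hg19 (GRCh37), per the submitters' processing notes. No source used here gives the aligner, annotation release, strand setting or filters. FPKM carries no depth, so counting error cannot be given, and a few abundant genes that change can shift all others. RSEM divides reads among matching transcripts, so genes with close copies are uncertain.

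Groups came from the sample titles, columns were matched by name, and 0 columns had no sample. Replicates shared identical values for no more than 0.548% of tested genes and were kept apart. The test was limma 3.58.1 (R 4.3.3; eBayes with a trend) on log2(FPKM + 1), run on genes whose mean over the 4 libraries was 1 FPKM or more. P-values were Benjamini-Hochberg adjusted over all tested genes, with a threshold of 0.05. The added 1 makes the change of low genes look smaller. Folds are ratios of mean FPKM, and values are in replicate order.

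The members and lists were chosen with earlier results of these data known. Genes were named by a rule: the 10 genes, KLF11, up to 4 tested genes of smallest p in each related list, the 4 most abundant tested genes of each marker list and the 5 genes nearest to EPCAM. Other genes were named after their values were seen, among them those behind small counts, paralogs, ADAM17, CTNND1, SNAI1 and RUNX2, SP7 and IBSP. Some listed genes, among them some that the rule selects, are not reported here. Alternatives were pseudocounts of 0.1 and 5, no filter or a filter of 5 FPKM, other scalings, other variance models (statmod 1.5.0), a replicate term, each library left out, and a minimum log2 change of 1. Figures were drawn with matplotlib 3.10.9.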

Additional observations from a re-analysis of the deposited data

How the results depend on the processing

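All 10 log2 changes were negative under every alternative in which the gene was tested. The number of the 10 genes called lower was 8 to 9 under the alternatives with all 4 libraries, except that it was 3 with no filter, where 887 genes were higher and 1251 lower over the table. Without a filter 34232 genes were tested, and the standard errors also moved, so the cause was not isolated. A filter of 5 FPKM left GRHL2 and OVOL2 untested. With a minimum log2 change of 1, 716 genes were higher and 1265 lower, fewer by construction. With 1 library left out in turn, the number called lower ranged from 0 to 10 of the 10 genes, and over all genes from 0 to 3813 lower and from 0 to 2291 higher. The counts of 0 came from leaving out control siRNA replicate 1 or 2, in limma, with 4461 and 4793 genes at an unadjusted p under 0.05, and the cause was not tested. The replicate numbers do not pair the libraries as far as the labels say, and deviations of same-numbered libraries from their group means correlated at -0.07 across genes. With the replicate number as a block, 9 of the 10 genes were called lower, and 1707 genes were higher and 2644 lower. With 2 libraries a group and no counts, the effect of depth on these values cannot be given.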
